A study of Mus musculus with 4 samples.

Results

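Germline and meiosis genes were followed in mouse embryonic stem cells after deletion of Smarca4, which encodes BRG1, an ATPase of the BAF chromatin remodeling complexes. The 33 genes were a list of known germ-cell genes, matched by symbol to the 24428 gene rows of the count files. They were read by function as 13 genes of the meiotic chromosome axis and recombination, 10 of the piRNA pathway and 10 other germ-cell genes. All 4 poly(A) RNA-seq libraries came from 129SvEv stem cells at passages 15 to 20, carrying the floxed Smarca4flfl alleles and a tamoxifen-inducible CreER, grown in serum with LIF, a cytokine that keeps mouse stem cells undifferentiated. Controls had ethanol (n = 2) and the other cultures 0.8 uM 4-hydroxytamoxifen (n = 2), in both cases for 48 h with collection at 72 h. Cells with CreER but without floxed alleles were not analysed here, so deletion, drug and active Cre cannot be told apart. The labels name neither separate cultures nor clones, so p-values measure the spread between these libraries, which may be technical.

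Germ-cell genes are transcribed mainly in the developing gonads, where they carry out meiosis and, through PIWI proteins and their piRNAs, hold transposons silent. In mouse stem cells many of them are kept low by promoter DNA methylation and by a noncanonical Polycomb complex that contains MGA, MAX, E2F6, L3MBTL2 and PCGF6. In that complex MGA and MAX bind the E-box motif and E2F6 binds E2F motifs.

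The libraries held 13458463 to 27086142 reads in genes. Of all reads listed in each count file, summary lines included, those outside genes made up 40.8 to 51.7% with ethanol and 35.0 to 37.6% with tamoxifen. The ribosomal precursor Rn45s took 0.299 to 0.391% of the reads in genes with ethanol and 0.653 to 0.691% with tamoxifen. Smarca4 was at 328 and 409 CPM (counts scaled to library size with TMM factors) with ethanol and 68.5 and 68.7 with tamoxifen, a log2 fold change of -2.43 ± 0.17 (SE; edgeR quasi-likelihood test, adjusted p = 1.08e-05). Its count includes exons outside the deleted stretch. All 10 stem cell markers passed the filter on low counts, and 2 rose and 1 fell, where 44.5% of all tested genes were called. With GC correction 4 were called higher and 2 lower, where 21.1% of all tested genes were called. Those higher were Nanog (0.65 log2), Fbxo15 (0.74), Dppa5a (0.58) and Zfp42 (0.43), and those lower were Utf1 (-0.69) and Esrrb (-0.55). Pou5f1 and Sox2 did not pass the test in either fit (0.18 ± 0.17 and -0.12 ± 0.15 without GC correction). Of 29 fibroblast markers, 27 were tested and 21 rose (77.8%, against 21.5% of all tested genes). With correction for GC content 21 were called higher (77.8%, against 10.8%), 20 of them in both fits. Their summed level was 3410 to 3910 CPM with ethanol and 5290 to 5560 with tamoxifen, and none was without reads. Their part in the germline results was not tested.

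No general rise of germline genes was measured after tamoxifen. Of the 33 genes, 29 passed the filter, 3 rose and 11 fell (edgeR quasi-likelihood test, Benjamini-Hochberg adjusted p under 0.05 over all genes). That is 48.3% called, against 44.5% of all 14479 tested genes, so the share called with both directions pooled is near that of any gene. By direction, 11 of 29 fell, against 22.9% of all tested genes, and 3 of 29 rose, against 21.5%. This skew towards lower was not tested. Scaled by total counts, 4082 genes were called higher and 2520 lower, and the median of all genes moved from -0.01 to 0.12 log2, while the germline counts were 3 higher and 9 lower. The median log2 fold change was -0.26 over the tested germline genes and -0.01 over all tested genes. Both tamoxifen libraries lay above both ethanol libraries for 7 of the tested germline genes and below for 15. Over all tested genes, 74.0% were separated in one direction or the other, 37.0% above and 37.0% below. Lower levels in a bulk library can mean fewer cells that transcribe a gene or less RNA per cell, which cannot be told apart.

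Counts in these libraries moved with the GC content of the transcript, and many germline genes are poor in GC. The tested germline genes had a median GC content of 44.9%, against 50.1% over all tested genes, and the axis and recombination genes had 39.8%. Each call is therefore given also from a fit that removes each library's trend along GC content. Over all tested genes the median log2 fold change was -1.03 at 30 to 35% GC and 0.53 at 55 to 60%. The correction would thus also remove any change with tamoxifen that follows GC content, and the origin of the trend was not tested. With that correction 5 germline genes were called higher and 5 lower, 34.5% of the 29 tested, against 21.1% of all tested genes (10.8% higher and 10.3% lower). In both fits 7 were called in the same direction: Sycp3, Brdt, Stra8 and Piwil4 lower, and Stag3, Mov10l1 and Piwil2 higher. Of these, Piwil4 passed the filter only through its ethanol libraries, so its entry to the test was tied to the group where it was higher.

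**Figure D1:**
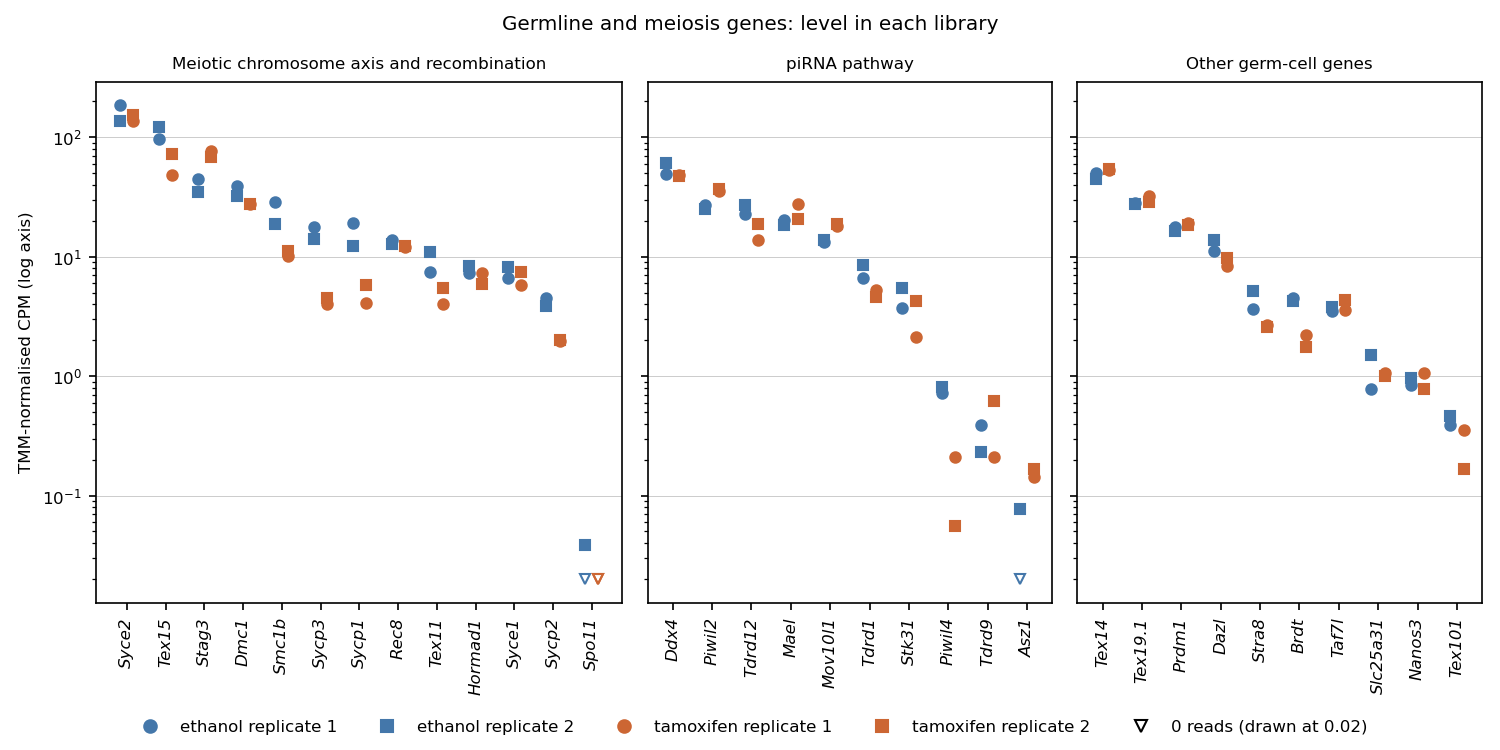
Level of each of the 33 genes in each library, as TMM-normalised CPM on a log axis, in panels by function. Circles and squares are replicates 1 and 2, blue is ethanol, orange is tamoxifen, and open triangles are libraries with 0 reads; Sycp3 and Sycp1 are lower and Stag3 higher in both tamoxifen libraries.

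Levels in the ethanol cells were compared per length, as RPKM (CPM per kilobase of the longest transcript). Of the 33 germline genes, 8 were under 1 on average, as were 12131 of all 24058 genes with a known length. Syce2, of the central element of the synaptonemal complex, stood far above the rest at 95.9 RPKM with ethanol and 86.4 with tamoxifen. Next came the RNA helicase gene Ddx4 (18.2 RPKM with ethanol), the recombinase gene Dmc1 (16.1), Tex19.1 (16.1), Sycp3 (13.8), Tex15 (13.1), and Mael (11.5). On the same scale Pou5f1 was at 222 and Sox2 at 215 RPKM with ethanol. Spo11, which makes the DNA breaks that start meiotic recombination, had 1 read in all 4 libraries together, in ethanol replicate 2.

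Promoter windows are printed for 4 genes: Sycp3, Stag3, Hormad1 and Brdt. Sycp3 had the largest fall after Piwil4, Stag3 is the axis gene that rose, and Brdt fell in both fits. Hormad1 is an axis gene with a promoter rich in the same motifs that was not called without GC correction. Each window runs from 250 bases before to 50 bases after the RefSeq start, 5′ to 3′, and all lie on the plus strand of GRCm38.p6. Capitals mark an E-box (CACGTG) or an E2F core (GCGGGA, or TCCCGC on the other strand).
Sycp3 (chr10:88459337-88459636): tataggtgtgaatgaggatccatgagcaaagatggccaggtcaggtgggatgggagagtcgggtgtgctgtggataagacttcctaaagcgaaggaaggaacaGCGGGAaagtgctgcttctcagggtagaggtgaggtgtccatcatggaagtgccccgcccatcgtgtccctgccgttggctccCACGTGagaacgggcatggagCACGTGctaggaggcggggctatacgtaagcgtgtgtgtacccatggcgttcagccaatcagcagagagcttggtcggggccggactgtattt
Stag3 (chr5:138280259-138280558): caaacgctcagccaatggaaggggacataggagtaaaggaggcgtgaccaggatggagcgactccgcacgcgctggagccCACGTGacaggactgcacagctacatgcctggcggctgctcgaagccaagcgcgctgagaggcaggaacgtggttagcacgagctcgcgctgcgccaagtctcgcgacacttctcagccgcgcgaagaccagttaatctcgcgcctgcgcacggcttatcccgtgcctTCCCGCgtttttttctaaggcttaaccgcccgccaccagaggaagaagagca
Hormad1 (chr3:95559427-95559726): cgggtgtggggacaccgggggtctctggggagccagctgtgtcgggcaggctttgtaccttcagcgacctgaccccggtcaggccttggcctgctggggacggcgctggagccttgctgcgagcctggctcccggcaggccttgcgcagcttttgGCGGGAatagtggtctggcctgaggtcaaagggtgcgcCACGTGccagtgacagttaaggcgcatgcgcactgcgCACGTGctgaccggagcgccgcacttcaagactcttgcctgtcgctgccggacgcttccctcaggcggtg
Brdt (chr5:107330944-107331243): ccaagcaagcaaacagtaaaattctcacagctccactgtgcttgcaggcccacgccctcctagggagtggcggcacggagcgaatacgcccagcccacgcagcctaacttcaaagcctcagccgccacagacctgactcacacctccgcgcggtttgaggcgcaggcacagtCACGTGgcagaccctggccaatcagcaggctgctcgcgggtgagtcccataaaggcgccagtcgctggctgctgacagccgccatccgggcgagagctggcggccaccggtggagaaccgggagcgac
The windows of Sycp3 and Hormad1 each hold a pair of E-boxes near the start and an E2F core upstream of them. Stag3 has both motifs, and Brdt an E-box alone.

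Of the 33 genes, 29 had a window in the RefSeq table, and the first one listed was used. An E-box was found in 13 of them (44.8%), against 7.24% of 27025 windows of all genes and 10.2% of the 10918 windows of genes that passed the filter. An E2F core was also found in 13 (44.8%, against 20.0% and 35.8%), and both motifs in 7 (24.1%, against 2.05% and 4.03%). No member's matches overlapped each other. The windows held a median of 19 CpG, against 7 over all genes and 20 over those that passed the filter. By call without GC correction, an E-box was in 4 of 9 windows of genes that fell, 6 of 15 of genes not called and both windows of genes that rose. Genes with these letters were thus found in all 3 classes.

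**Figure D2:**
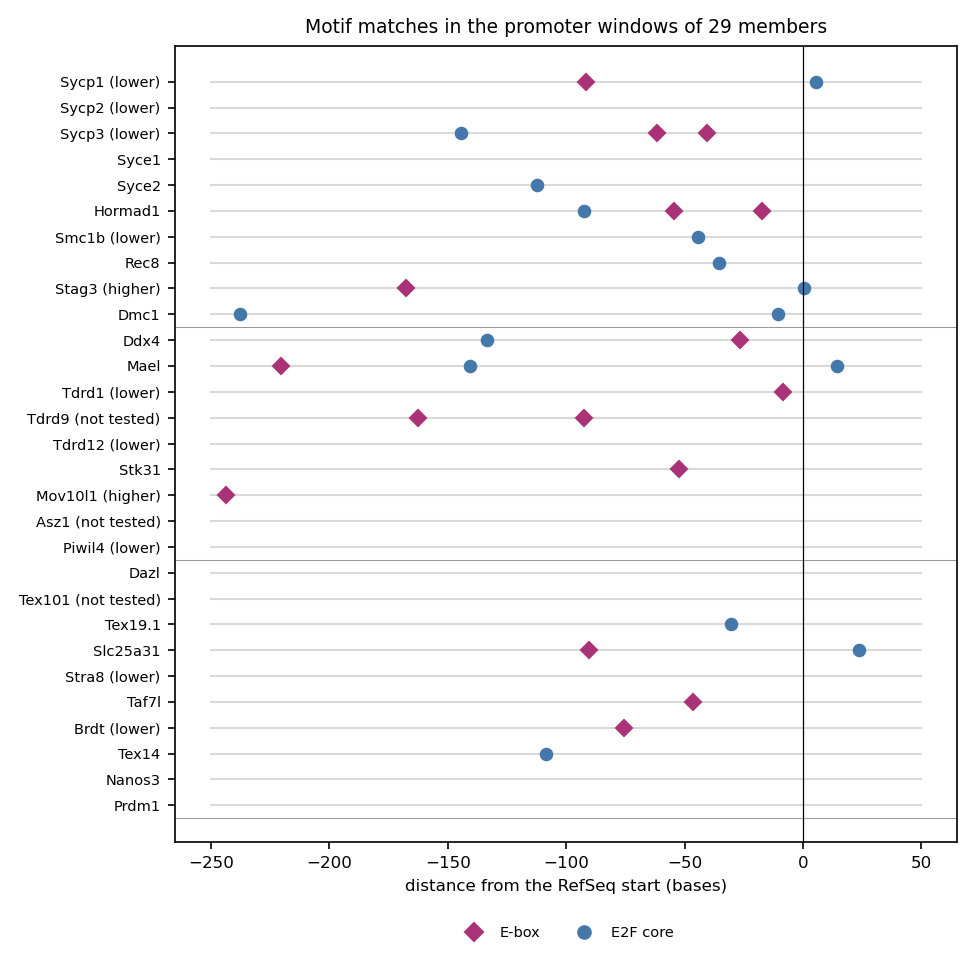
Position of E-boxes (purple diamonds) and E2F cores (blue circles) in the promoter windows of 29 genes, as distance in bases from the RefSeq start, grouped by function with the call without GC correction in brackets. Matches appear beside genes that fell, rose and were not called, and 10 of the 29 windows have neither motif.

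Among the genes of the meiotic chromosome axis and recombination, 12 of 13 were tested, 6 fell and 1 rose, with a median log2 fold change of -0.61. Of all tested genes 22.9% fell and 21.5% rose. With GC correction 2 of the 12 were called lower and 2 higher, against 10.3% and 10.8% of all tested genes, with a median of -0.15. The synaptonemal complex joins paired chromosomes, with SYCP2 and SYCP3 in its lateral elements and SYCP1 spanning the centre. Sycp3 had 17.9 and 14.2 CPM with ethanol against 4.03 and 4.54 with tamoxifen. Its levels in the groups did not overlap, and it fell 3.72-fold (-1.89 ± 0.20 log2, SE; edgeR adjusted p = 8.53e-05). With GC correction the fall was 0.89 log2 and remained called (edgeR adjusted p = 0.0104). The corrected call ended on leaving out tamoxifen replicate 2 (-0.92). In the GENCODE annotation of GRCm38, 52.2% of the exon bases of Sycp3 lie opposite exons of Chpt1 (-0.62 log2), and without a stated strand setting their reads cannot be told apart.

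Sycp1 was at 19.0 and 12.2 CPM with ethanol and 4.10 and 5.77 with tamoxifen, and fell 3.09-fold (-1.63 ± 0.25 log2; edgeR adjusted p = 6.42e-04). Sycp2 went from 4.50 and 3.88 to 1.98 and 2.02 CPM, a fall of 1.05 ± 0.25 log2 (edgeR adjusted p = 0.00565). Both were lower in each tamoxifen library than in either ethanol library. Neither was called with GC correction alone, at -0.65 and -0.17 log2. The central element genes Syce1 (-0.17 ± 0.21) and Syce2 (-0.15 ± 0.17) overlapped between the groups and did not pass the test in either fit. The transcripts of Sycp1, Sycp2 and Sycp3 have 34.3 to 36.4% GC, and those of Syce1 and Syce2 49.5 and 49.4%. With GC correction Sycp2 (-0.17 ± 0.26) was close to Syce1 (-0.13 ± 0.21) and Syce2 (-0.09 ± 0.16), and differences between these genes were not tested.

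The meiotic cohesin, which holds sister chromatids along the axis, contains SMC1B, REC8 and STAG3. Stag3 rose from 44.8 and 34.9 CPM to 77.2 and 68.2, with no overlap, a log2 fold change of 0.87 ± 0.16 (1.83-fold; edgeR adjusted p = 0.00144). It had 0.94 log2 with GC correction and was called higher in all 18 alternative analyses, the only germline gene of the 29 of which this held. Smc1b was at 28.5 and 18.8 CPM with ethanol and 10.2 and 11.2 with tamoxifen, a fall of 1.13 ± 0.21 log2 (edgeR adjusted p = 0.00135) that was not called with GC correction alone. Rec8, at 13.7 and 12.8 CPM with ethanol and 12.0 and 12.3 with tamoxifen, had -0.13 ± 0.17 log2. Rec8 passed the test with GC correction (-0.56, edgeR adjusted p = 0.0271) and its transcript has 56.7% GC. The corrected call ended on leaving out either tamoxifen library, with the values almost the same (-0.58 to -0.54 with each library left out in turn). With GC correction Smc1b (-0.47 ± 0.22) and Rec8 (-0.56 ± 0.16) had similar values, and the difference between them was not tested.

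Hormad1, which marks chromosome axes that have not paired, was at 7.30 and 8.37 CPM with ethanol and 7.36 and 5.88 with tamoxifen. Its groups overlapped (-0.26 ± 0.20 log2), yet with GC correction it had 0.67 log2 and was called higher (edgeR adjusted p = 0.0329). That call ended on leaving out tamoxifen replicate 1 (0.44) or replicate 2 (0.88). Its transcript has 35.8% GC. Dmc1, the meiotic strand-exchange recombinase, had 39.4 and 32.0 against 27.9 and 27.6 CPM, with no overlap, and did not pass the test (-0.36 ± 0.16 log2, edgeR adjusted p = 0.0845; 0.16 with GC correction). It was called lower without ethanol replicate 2 (-0.50).

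Tex11, an X-linked gene needed for meiotic crossovers, was at 7.43 and 10.9 CPM with ethanol and 4.03 and 5.49 with tamoxifen, and fell by 0.95 ± 0.24 log2 (edgeR adjusted p = 0.00713). Tex15, which acts in meiotic break repair, went from 97.2 and 123 to 48.5 and 73.2 CPM, a fall of 0.85 ± 0.20 log2 (edgeR adjusted p = 0.00634) that ended without tamoxifen replicate 1 (-0.59). Neither was called with GC correction, at -0.28 and -0.04 log2. Groups of both genes were apart, with a wide spread inside each pair.

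All 6 axis and recombination genes that fell were poor in GC. All 8 tested germline genes with under 40% GC had negative log2 fold changes before correction, and 6 of them fell: Sycp1, Sycp2, Sycp3, Smc1b, Tex11 and Tex15. Of all 810 tested genes under 40% GC, 71.4% fell, with a median log2 fold change of -0.80, so 6 of 8 is near that share. The exceptions were Hormad1 and Dazl, with 35.8 and 37.0% GC. At or over 40% GC, 5 of 21 germline genes fell and 3 rose, and 20.1% of all tested genes fell. Of the GC-poor genes, Sycp3 alone was called lower in both fits.

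**Figure D3:**
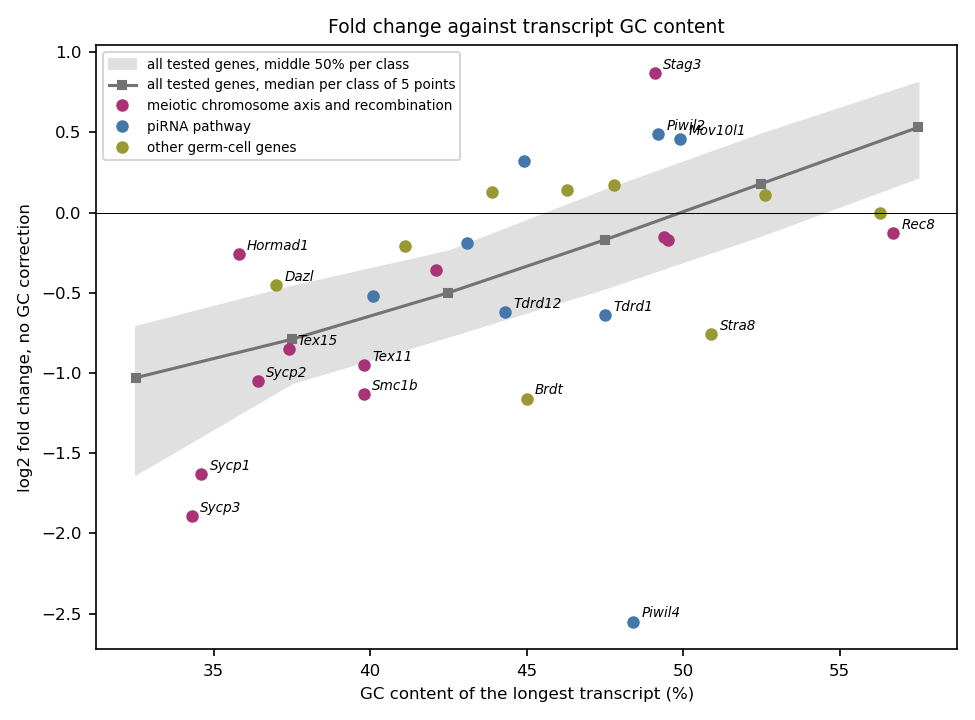
Log2 fold change without GC correction (vertical axis) against GC content of the longest transcript in percent (horizontal axis) for the 29 tested germline genes, coloured by function; the line and band are the median and middle 50% of all tested genes in classes of 5 percentage points. Sycp3, Brdt, Stra8 and Piwil4 are among the genes below the band, and Stag3 and Hormad1 among those above it.

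Of the 10 genes of the piRNA pathway, 8 were tested, 2 rose and 3 fell, where 21.5% of all tested genes rose and 22.9% fell. Their median log2 fold change was -0.35. With GC correction 3 were called higher and 1 lower, against 10.8% and 10.3% of all tested genes, with a median of 0.20. PIWI proteins bind piRNAs, and the mouse genes Piwil2 (MILI) and Piwil4 (MIWI2) act in fetal male germ cells. Piwil2 was at 27.0 and 25.0 CPM with ethanol and 35.7 and 37.0 with tamoxifen, and rose by 0.49 ± 0.15 log2 (1.40-fold; edgeR adjusted p = 0.0193; 0.55 with GC correction, also called). Mov10l1, an RNA helicase that starts piRNA processing, went from 13.2 and 13.7 to 18.1 and 18.9 CPM, a rise of 0.46 ± 0.16 log2 (edgeR adjusted p = 0.0346; 0.48 with GC correction, also called). Neither gene's groups overlapped. Both calls ended without tamoxifen replicate 1 (0.51 and 0.49 log2) or replicate 2 (0.46 and 0.43), and that of Mov10l1 with DESeq2 (0.46, adjusted p = 0.0886), with the values almost the same.

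Piwil4 had 11 and 21 reads with ethanol and 3 and 1 with tamoxifen, at most 0.806 CPM in any library. Its log2 fold change was -2.55 ± 0.65 (edgeR adjusted p = 0.00779; -2.44 with GC correction). From the summed reads, 4 against 32, the tamoxifen level was 16.2% of the ethanol level (exact 95% interval 4.16 to 45.6%, counting error only). Piwil4 passed the filter only through the ethanol libraries, the group where it was higher, so its entry to the test and its direction are not independent. Its call ended without tamoxifen replicate 2 (-1.82) and with DESeq2 (-2.57, adjusted p = 0.0600).

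TDRD proteins carry tudor domains that bind methylated arginines of PIWI proteins. Tdrd12 was at 22.9 and 27.0 CPM with ethanol and 13.7 and 18.8 with tamoxifen, and fell by 0.62 ± 0.19 log2 (edgeR adjusted p = 0.0171), a call lost without tamoxifen replicate 1 (-0.42). Tdrd1 went from 6.58 and 8.53 to 5.24 and 4.60 CPM, a fall of 0.64 ± 0.21 log2 (edgeR adjusted p = 0.0289). The call of Tdrd1 ended with total counts (-0.51), with DESeq2 (-0.63), and on leaving out tamoxifen replicate 1 (-0.73), tamoxifen replicate 2 (-0.54) or ethanol replicate 2 (-0.42). Groups of neither gene overlapped, and neither was called with GC correction, at -0.24 and -0.46 log2.

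Ddx4, the mouse vasa gene, was at 49.0 and 60.6 CPM with ethanol and 48.7 and 47.5 with tamoxifen. Its log2 fold change was -0.19 ± 0.15 (0.27 with GC correction), not called in either fit. Mael, a component of the same perinuclear granules, was at 20.3 and 18.5 against 27.5 and 20.9 CPM and had 0.32 ± 0.17 log2 (edgeR adjusted p = 0.150). It was called higher with GC correction (0.66, edgeR adjusted p = 0.0179), a call that ended on leaving out tamoxifen replicate 1 (0.43). Stk31, which also holds a tudor domain, overlapped between the groups (-0.52 ± 0.32). It was called lower without ethanol replicate 1 (-0.74) and without tamoxifen replicate 2 (-1.13). Tdrd9 had 6 and 6 against 3 and 11 reads, and Asz1, a protein of the mitochondrial surface in germ cells, 0 and 2 against 2 and 3, too few to be tested.

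Of the other germ-cell genes, 9 of 10 were tested, 2 fell and none rose in this fit or with GC correction. That is 22.2% called lower, against 22.9% of all tested genes without GC correction and 10.3% with it. Of all tested genes 21.5% rose, or 10.8% with GC correction. In the edgeR test 3 of the 9 reached an unadjusted p under 0.05 without GC correction and 6 with it. Of all 14479 tested genes, 7636 did so without GC correction and 5044 with it. DESeq2 and limma voom also called 0 of them higher. Brdt, the BET bromodomain protein of the testis, was at 4.50 and 4.26 CPM with ethanol and 2.19 and 1.74 with tamoxifen. It fell by 1.16 ± 0.26 log2 (2.24-fold; edgeR adjusted p = 0.00345; -0.83 with GC correction, also called). The corrected call ended on leaving out tamoxifen replicate 1 (-1.01) or replicate 2 (-0.64). Stra8, which germ cells switch on in response to retinoic acid as they enter meiosis, went from 3.65 and 5.15 to 2.69 and 2.58 CPM. Its fall of 0.76 ± 0.26 log2 (edgeR adjusted p = 0.0287; -0.81 with GC correction, also called) ended with total counts (-0.64), with DESeq2 (-0.76), and on leaving out tamoxifen replicate 1 (-0.79), tamoxifen replicate 2 (-0.72) or ethanol replicate 2 (-0.47). In both genes the groups did not overlap, on 31 to 134 reads per library.

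Dazl, an RNA-binding protein of germ cells, was at 11.1 and 13.7 CPM with ethanol and 8.42 and 9.75 with tamoxifen (-0.45 ± 0.19 log2, edgeR adjusted p = 0.0648). It passed the test without ethanol replicate 1 (-0.59) and with no filter (-0.47), and turned to 0.40, not called, with GC correction. The other 6 did not pass either test. Tex14, needed for the bridges between germ cells, had 0.17 ± 0.15 log2 and the germ-cell specification factor Prdm1 (BLIMP1) 0.14 ± 0.16, with both tamoxifen libraries above both ethanol libraries in each. Tex19.1, which restrains transposons in germ cells and is also known from pluripotent cells, was at 28.2 and 27.8 against 32.1 and 28.6 CPM (0.11 ± 0.15). Its close copy Tex19.2 was at 0.560 to 1.13 CPM in the 4 libraries, and reads shared by the copies may be split or dropped. The TFIID subunit gene Taf7l (0.13 ± 0.23), the ADP/ATP carrier gene Slc25a31 (-0.21 ± 0.40) and Nanos3 (0.00 ± 0.38), which keeps primordial germ cells alive, overlapped between the groups. Tex101, a surface protein of germ cells, had 6 and 12 against 5 and 3 reads and was not tested.

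**Figure D4:**
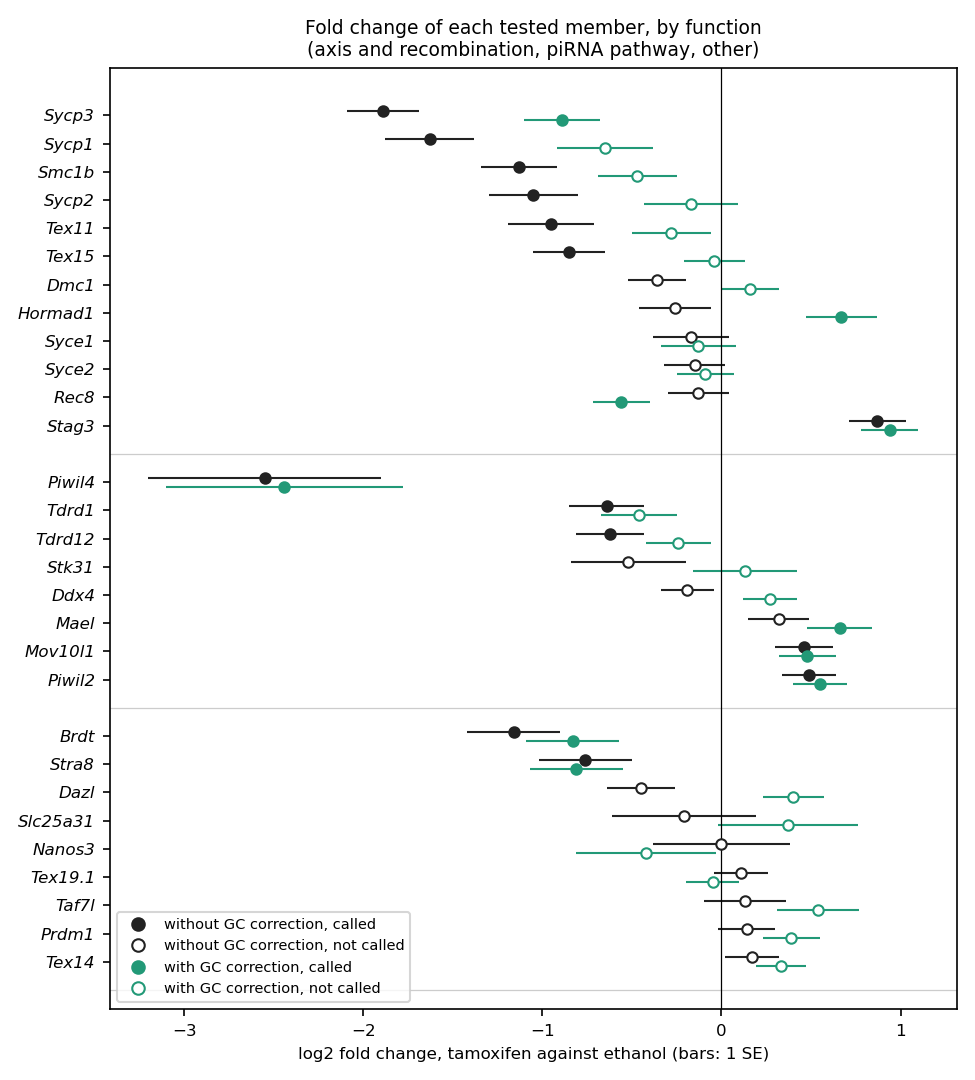
Log2 fold change (tamoxifen against ethanol, horizontal axis) of each tested germline gene by function, with bars of 1 SE, without (black) and with (green) GC correction; filled points are called at an adjusted p under 0.05. Most GC-poor axis genes move towards 0 with the correction, while Sycp3, Stag3, Piwil2, Mov10l1, Piwil4, Brdt and Stra8 are called in both fits.

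Of 38 further meiosis genes, 30 were found under the symbols searched and 26 tested, of which 3 rose and 9 fell. With both directions pooled 46.2% were called, near the 44.5% of all tested genes, of which 21.5% rose and 22.9% fell. The median log2 fold change of the 26 was -0.58 (-0.04 with GC correction, which left 3 higher and 2 lower). Ythdc2, an RNA helicase needed for meiotic entry, fell by 1.35 ± 0.18 log2 (-0.82 with GC correction, called in both). Its partner Meioc (-0.86 ± 0.14) and the synaptonemal complex gene Six6os1, listed as 4930447C04Rik (-0.95 ± 0.16), fell without GC correction only (-0.11 and 0.06 with it). Ccdc155 (KASH5), which links telomeres to the cytoskeleton, rose by 1.31 ± 0.27 log2 from 3.55 to 8.50 CPM on average (0.79 with GC correction, also called). The corrected call ended on leaving out ethanol replicate 2 (0.54) or tamoxifen replicate 2 (0.48).

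Of 20 further piRNA genes, 18 were found and 14 tested, with 3 higher and 2 lower (35.7% called, against 44.5% of all genes; 3 and 0 with GC correction) and a median of 0.12. Gpat2, a mitochondrial protein of piRNA processing, rose by 1.38 ± 0.29 log2, to 3.04 and 2.91 CPM (1.01 with GC correction, also called). The corrected call ended on leaving out tamoxifen replicate 1 (0.98) or replicate 2 (1.05). The tudor gene Rnf17 fell by 0.87 ± 0.20 (-0.24, not called with GC correction). Fkbp6 (1.32 ± 0.47) and Morc1 (-0.44 ± 0.16) were not called with GC correction (1.17 and -0.10). Fkbp6, with 10 and 8 against 13 and 23 reads, entered the test only through the tamoxifen libraries. Its call ended with DESeq2 (1.26) and on leaving out either tamoxifen library (1.51 for replicate 1 and 1.03 for replicate 2) or ethanol replicate 2 (0.78). The Morc1 call ended with total counts (-0.31), upper-quartile factors (-0.38) and DESeq2 (-0.44), and on leaving out ethanol replicate 1 (-0.32), tamoxifen replicate 1 (-0.35) or tamoxifen replicate 2 (-0.54).

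Among 39 genes of germ-cell specification and other germ-cell genes, 25 were tested, 2 rose and 3 fell, 20.0% called against 44.5% of all genes (4 and 2 with GC correction). The number called higher ranged from 0 with DESeq2 to 7 with total counts. Kit, the receptor that germ cells need to survive, fell by 1.36 ± 0.15 log2, from 53.9 and 56.6 to 23.1 and 20.0 CPM. Ifitm3, an early surface marker of primordial germ cells, fell by 0.89 ± 0.20, and both calls held with GC correction (-1.25 and -0.98). Elavl2 fell by 1.08 ± 0.19 without GC correction only (-0.32 with it). Tktl1, with 8 and 10 against 15 and 24 reads, had 1.46 ± 0.43 log2 (1.82 with GC correction, called in both). It entered the test only through the tamoxifen libraries, and its call ended with DESeq2 (1.43) and on leaving out ethanol replicate 2 (1.22) or tamoxifen replicate 2 (1.26).

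Of 32 genes of the machinery that silences germ-cell genes, all were tested, 4 rose and 10 fell (3 and 2 with GC correction). With both directions pooled 43.8% were called, near the 44.5% of all tested genes, of which 21.5% rose and 22.9% fell. L3mbtl2, a subunit of the Polycomb complex named above, rose by 0.93 ± 0.15 log2, from 64.2 and 66.6 to 116 and 133 CPM. In the same complex E2f6 fell by 0.49 ± 0.16 (-0.43, not called with GC correction). Mga (-0.38 ± 0.16), Pcgf6 (-0.28 ± 0.14) and Max (-0.09 ± 0.17) were not called in either fit. The RING finger gene Ring1 rose by 1.02 ± 0.18. Hdac2, a histone deacetylase, fell by 1.01 ± 0.15. Zbtb7b, a zinc finger gene best known from T cells, rose by 1.13 ± 0.17. L3mbtl2, Ring1, Hdac2 and Zbtb7b were also called with GC correction, at 0.62, 0.57, -0.48 and 0.53 log2. These corrected calls all ended on leaving out tamoxifen replicate 2 (0.52, 0.66, -0.52 and 0.51). Those of Ring1, Hdac2 and Zbtb7b also ended without tamoxifen replicate 1 (0.49, -0.43 and 0.54). Without ethanol replicate 2 those of Ring1 (0.54) and Zbtb7b (0.40) ended as well. The DNA methyltransferase gene Dnmt3a fell by 0.81 ± 0.16 (-0.93 with GC correction, also called). Dnmt1 (0.21 ± 0.15) and Dnmt3b (-0.06 ± 0.16) were not called in either fit.

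Germ cells past meiosis and gonadal somatic cells left little signal. Of 18 spermatid genes, 5 were tested and Tnp1, Pgk2, Akap4 and Catsper1 had no read, while the protamine genes Prm1 and Prm2 had at most 3 reads in a library. Summed spermatid levels were 266 to 305 CPM with ethanol and 299 to 335 with tamoxifen, most of it from Odf2 (270 and 304 CPM), which did not pass the test. Crem fell by 0.84 ± 0.19 log2 and Tssk6 (1.29 ± 0.43) and Gapdhs (0.83 ± 0.29) rose, none of them called with GC correction (-0.39, 0.46 and 0.50). Tssk6 entered the test only through the tamoxifen libraries. The calls of Tssk6 and Gapdhs ended with DESeq2 (1.25 and 0.81) and without ethanol replicate 2 (0.75 and 0.57), that of Tssk6 also without tamoxifen replicate 1 (0.98) and that of Gapdhs without tamoxifen replicate 2 (0.60). Of 14 gonadal somatic markers, 4 were tested and 1 was called (25.0%, against 44.5% of all tested genes). This was Gata4, which rose by 0.54 ± 0.14 log2 (0.07, not called with GC correction), a call lost without tamoxifen replicate 1 (0.52) or replicate 2 (0.57). Fshr had no read, and the summed level of 80.6 to 88.8 CPM with ethanol and 117 to 121 with tamoxifen was mostly Gata4, which endoderm also transcribes.

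**Figure D5:**
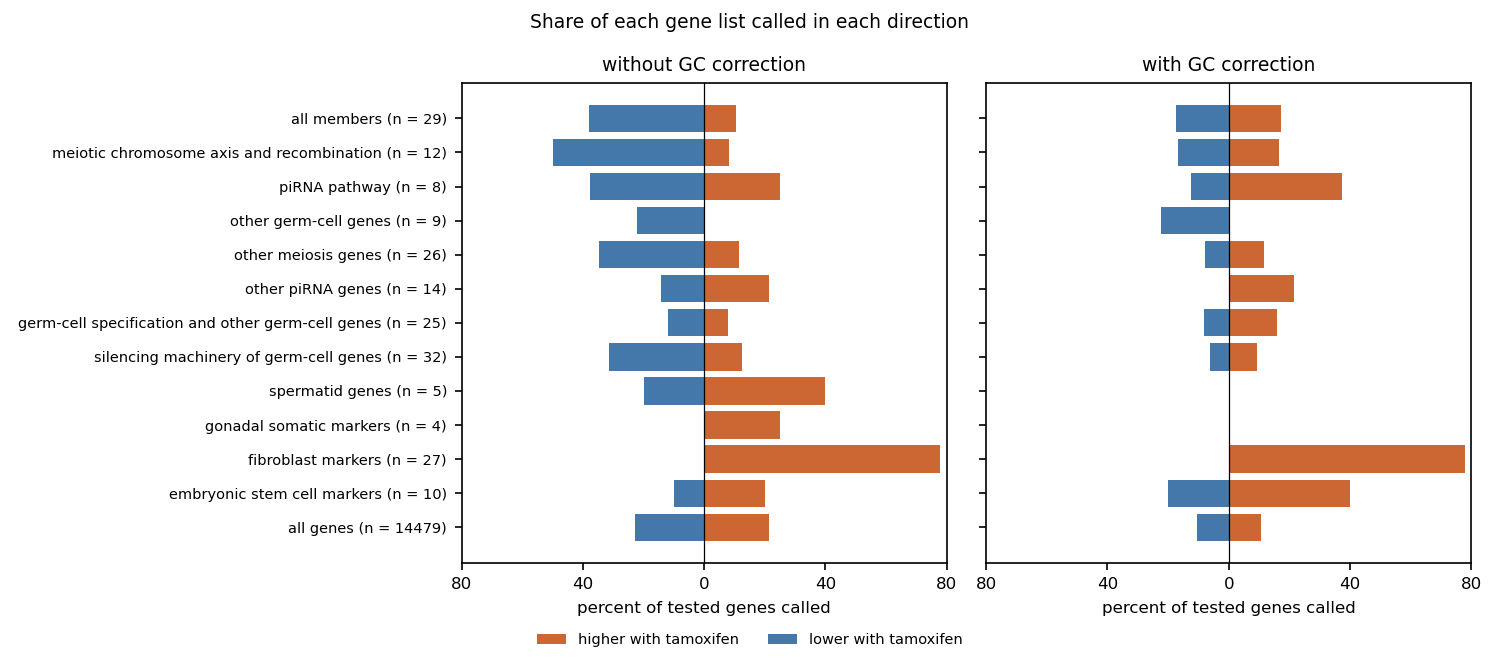
Percent of the tested genes of each list called higher (orange, right) or lower (blue, left) with tamoxifen, without and with GC correction, with the number tested in brackets. With GC correction the germline genes divide evenly, at 5 higher and 5 lower of 29, while fibroblast markers remain mostly higher (21 of 27).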

How the data were processed

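The authors deposited read counts per gene symbol, 1 file per library, with 5 HTSeq-style summary lines that were left out of library sizes and tests (reads outside genes were 35.0 to 51.7%). CASAVA 1.8.2, Bowtie 1.1.1, HTSeq, DESeq2 and the mm9 build are named, without roles, per the submitters' processing notes. Neither the annotation nor the strand rule of the counting is given in the sources used. The groups came from the titles. Counts were tested with edgeR 4.0.16 in R 4.3.3 (robust quasi-likelihood, TMM factors, filterByExpr, which needed about 0.600 CPM in 2 libraries, group as the only term), with Benjamini-Hochberg adjustment over 14479 genes. Each SE was obtained by dividing the log2 change's size by the root of its F statistic.

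GC correction entered, for each library, a loess fit (span 0.5) of its deviation on transcript GC content as an offset. The longest GENCODE transcript (GRCm38) of a symbol gave its GC content and length, and 24058 of 24428 symbols had one. Promoter sequences are from RefSeq, build GRCm38.p6, which differs from the build of the files. The alternatives used RLE, upper-quartile or no factors, other filters, DESeq2 1.42.0, limma 3.58.1 voom, the replicate number as a block, and each library left out, where a group's single remaining library borrows the spread of the other group. The procedure was tested on simulated data.

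Germline genes and lists were chosen with earlier results of these data known. The rule named all 33 germline genes, Smarca4, Tex19.2 and up to 4 called genes with the smallest adjusted p of each further list. Other genes (Pou5f1, Sox2, Chpt1, Odf2, E2f6, Mga, Pcgf6, Max, Dnmt1, Dnmt3a, Dnmt3b and those without reads) were named after their values were seen. The same holds for Nanog, Fbxo15, Zfp42, Utf1 and Esrrb.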

Additional observations from a re-analysis of the deposited data

How the results depend on the processing

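GC correction changed the counts to 1562 genes higher and 1495 lower, with 5 germline genes in each direction. With 1 library left out, with or without that correction, 464 to 3598 genes were called higher and 484 to 3728 lower, and 1 to 5 germline genes higher and 0 to 13 lower. The lowest counts over all genes, and of germline genes lower, came without tamoxifen replicate 2 under GC correction. No label pairs the replicate numbers, and deviations of same-numbered libraries correlated at 0.234. With the replicate number as a block, 3919 genes were higher and 4168 lower, with 3 germline genes higher and 13 lower, Dmc1 (-0.35) and Dazl (-0.45) among the latter. With the block and GC correction together, 7 germline genes were higher and 7 lower, among them Tex14 and Prdm1 higher and Sycp1 and Smc1b lower, which GC correction alone did not call. The log2 fold change changed sign with GC correction, and with the block added to it, for Hormad1 (0.67 and 0.66), Dmc1 (0.16 and 0.17), Ddx4 (0.27 and 0.27), Stk31 (0.13 and 0.12), Dazl (0.40 and 0.40), Tex19.1 (-0.05 and -0.05), Slc25a31 (0.37 and 0.39) and 4930447C04Rik (0.06 and 0.04). For Nanos3 it did so with upper-quartile factors (0.06), total counts (0.12) and DESeq2 (0.01). With 1 library left out, with or without GC correction, ranges that crossed 0 were -0.36 to 0.07 (Syce1), -0.35 to 0.12 (Syce2), -0.42 to 0.88 (Hormad1), -0.50 to 0.34 (Dmc1), -1.18 to 0.18 (Tex15), -0.33 to 0.40 (Ddx4), -1.13 to 0.48 (Stk31), -0.59 to 0.49 (Dazl), -0.13 to 0.20 (Tex19.1), -0.53 to 0.92 (Slc25a31), -0.01 to 0.64 (Taf7l), -0.64 to 0.22 (Nanos3), -1.21 to 0.21 (Tex19.2), -1.13 to 0.27 (4930447C04Rik) and -0.55 to 0.03 (Morc1). The cause was not tested. Piwil4 and Nanos3 were not tested under the filter of 1 CPM. With 2 libraries in each group, the SE of the tested germline genes reached 0.65 log2 (Piwil4).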
